A study of Mustela putorius furo with 7 samples.

Results

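Dense stretches are runs of the genome in which open chromatin regions follow one another closely. Chromatin accessibility was measured with the assay for transposase-accessible chromatin (ATAC-seq) in polarized pancreatic ductal epithelial (PDE) cultures of the ferret, and the authors' matrix lists 95129 open regions on 1895 scaffolds of the assembly MusPutFur1.0. Regions were sorted along each scaffold, and a region was joined to the one before it when it began at most 5000 bp after that one ended. Every run of 5 or more joined regions was taken as a dense stretch. The rule gave 674 stretches, which together hold 3919 of the 95129 regions (4.12%) and lie on 260 scaffolds. It used positions only and no signal, although positions come from peaks called in these same libraries.

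The comparison was between CF and WT. The cystic fibrosis (CF) cultures were homozygous for a knockout of CFTR, the epithelial chloride and bicarbonate channel (CFTR KO/KO, n = 3 libraries), and the controls were wild type (WT, n = 4 libraries). In both genotypes ductal cells came from newborn donors aged 1 to 3 days, were taken to passage 10 and were grown for 14 days at an air-liquid interface (ALI) with no further treatment. About 50000 cells entered each reaction and libraries were amplified for 12 PCR cycles. The knockout line descends from somatic cell nuclear transfer of gene-targeted fibroblasts and makes no CFTR transcript or protein, so the CF cultures model a complete loss of the channel in a cell population selected by long passage. The labels number 4 WT donors whereas the study's methods name 3 donors of each genotype, so p-values measure the spread between libraries, whatever part of it is between animals. Reads in regions ran from 8469877 to 11047724 in the CF libraries and from 3226534 to 8172005 in the WT libraries, and the WT values are therefore the less precise. No gene annotation of this assembly was used here, so stretches are named by scaffold and position, the CFTR locus and ductal marker genes were not examined, and whether a region lies in a promoter, intron or intergenic sequence is not given.

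An open region is a place where nucleosomes are displaced and a transposase can reach the DNA, most often a promoter, an enhancer or a binding site of an architectural protein. Such sites are spread unevenly. Groups of enhancers that lie within a few kilobases of each other are a known feature of the loci that give a cell type its identity, and gene-dense stretches place promoters side by side. Neighbouring sites may respond to the same factors, or a single site may be gained or lost inside an otherwise steady group, and the comparison of CF with WT PDE cultures addressed which of these patterns the stretches show.

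Most dense stretches were short. Of the 674, 388 held 5 regions, 157 held 6, 68 held 7, 28 held 8, 18 held 9 and 15 held 10 or more, up to 18. Their length ran from 2711 to 43336 bp with a median of 13667.5 bp, and they covered 9511 kb in all. The median spacing between regions inside a stretch was 1996 bp, against 10939 bp between all neighbouring regions of the matrix. Open regions filled a median of 24.4% of a stretch, with a range from 8.39% to 70.0%. Scaffold GL896903 held the most stretches, 20, and 46 stretches lay on scaffolds whose last region ended before 100 kb, where a stretch can be cut short by the end of the scaffold. The limit on spacing did not fall in a natural gap, since 2530 spacings of the matrix lay within the last 500 bp below it and 2390 within the first 500 bp above it. The 1020 chains of exactly 4 regions, just outside the rule, had 11.5% of their regions called as changed in CF and the chains of exactly 5, just inside it, 11.6%, by the test described below.

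Regions of dense stretches carried more signal than regions that stood apart. Signal here is the normalised read count of the authors' matrix, and levels are given as log2(signal + 1). The median level was 5.53 for regions of dense stretches, 4.84 for regions in chains of 2 to 4 and 4.31 for single regions. They were not wider, with median widths of 522 bp, 544 bp and 572 bp in that order. A peak was called in all 7 peak lists at 29.0% of the dense regions, 26.4% of the regions in chains of 2 to 4 and 26.2% of the single regions. The spread of levels within a stretch was wide. The strongest region of a stretch held a median of 36.2% of its reads (range 15.1% to 91.2%), had a median level of 7.09 against 5.29 for the other members, and was wider at a median of 842 bp against 479 bp. It had a peak in all 7 lists in 74.0% of stretches, against 19.7% of the other members. These strong regions were called as changed less often than their neighbours by count, 24 opened and 26 closed of 674 (3.56% and 3.86%), against 160 opened and 189 closed of the other 3245 (4.93% and 5.82%), a difference for which no test was made because regions of a stretch are not independent. The strong regions and their neighbours also differ in level. In the highest quintile of mean signal over all regions, 1.56% of dense regions were opened and 3.73% closed.

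For each region the change was the mean log2(signal + 1) of the 3 CF libraries minus that of the 4 WT libraries, tested with limma over all 95129 regions. A region was called opened in CF when its log2 change was above 1, or closed when it was below -1, with a p under 0.05 after Benjamini-Hochberg adjustment. Of the 3919 dense regions, 184 were opened (4.70%) and 215 closed (5.49%), beside 4.31% opened and 6.26% closed over all regions. The share of called regions was thus close to the background in both directions. The median absolute log2 change was 0.43 in dense stretches, 0.52 in chains of 2 to 4 and 0.58 in single regions, and these classes also differ in signal. Within quintiles of mean signal the order of dense and single regions was mostly the opposite. From the lowest quintile to the highest the median was 1.41, 0.789, 0.604, 0.406 and 0.290 in dense regions. In single regions it was 0.918, 0.689, 0.593, 0.495 and 0.261, so dense regions had the smaller value of these classes only in quintile 4. In chains of 2 to 4 it was 0.990, 0.727, 0.586, 0.451 and 0.292. Opened members changed by a median of 1.99 and closed members by a median of -1.75. The balance moved with the scaling, to 350 opened and 116 closed members by library size alone and 254 and 149 with upper-quartile scaling. Leaving out a CF library lowered the number of opened members to 68 without CF1, 69 without CF2 and 66 without CF3, and that of closed members to 142 and 133 without CF1 and CF3.

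Whole stretches were then tested. The mean log2(signal + 1) of the regions of each chain was fitted with limma over all 69522 chains of the matrix, single regions included, and called at an adjusted p under 0.05. Of the 674 dense stretches, 17 were higher in CF (2.52%) and 26 were lower (3.86%), beside 4.42% and 7.37% of all chains. These shares are not like measures, since 51855 of all chains are single regions and a stretch is a mean over 5 or more. The SD of the change was 0.54 over dense stretches and 1.06 over single regions. The 17 higher stretches rose by a median of 1.30 on the log2 scale (range 0.72 to 2.13), and the 26 lower stretches changed by a median of -1.04 (range -2.66 to -0.72). In all 43, every CF library lay on one side of every WT library. Such a separation is common here and was seen in 182 of the 674 stretches (27.0%) and in 25.0% of all chains. Over all stretches the median change was 0.02, with an interquartile range from -0.25 to 0.36, and 113 stretches had an unadjusted p under 0.05. Each called stretch held at least 1 called region, and none held a region called in the opposite direction. Of the 95 regions of the higher stretches 87 had a positive change, and of the 151 regions of the lower stretches 139 had a negative one. In 10 of the 17 and 16 of the 26, every region had the sign of the stretch. The stretches were called on the mean of these same regions, so the selection itself favours a shared sign. These counts are therefore a description and no test of regions changing together.

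These counts rest on every CF library, on the scaling and on the fit. With only dense stretches in the fit 52 were higher and 47 lower, with the summed signal of a stretch 40 and 62, and with edgeR on summed reads 50 and 59. The higher and lower stretches numbered 5 and 8 without CF1, 4 and 10 without CF2, 4 and 9 without CF3, and 12 and 15 without WT2. Scaling by library size alone gave 43 higher and 7 lower stretches and upper-quartile scaling 30 and 13, so the balance between the directions follows the scaling. Library-size scaling moved the median change of all regions from 0.03 to 0.37 and upper-quartile scaling moved it to 0.21.

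The 5 higher stretches with the smallest adjusted p lay on 5 scaffolds. The clearest was GL897058:3042872-3057648, 14777 bp with 6 regions, of which 5 were opened. Its mean log2 level was 5.91, 6.26 and 5.96 in CF1 to CF3 and 3.73, 3.80, 3.99 and 4.14 in WT1 to WT4. The lowest CF library was well above the highest WT library, and the rise was 2.13 ± 0.36 (SE; adjusted p = 0.00145, limma). The opened regions rose by 1.39 to 3.05, and the last region, with a change of 1.48 ± 0.52, did not pass (adjusted p = 0.0698). The largest change was at GL897058:3049498-3049846, where the signal was 18.0, 38.8 and 29.8 in the CF libraries and 2.93, 0.888, 6.15 and 1.68 in the WT libraries. The WT values there are a few reads at most, so the size of that fold depends on the pseudocount of 1. The other regions of the scaffold, 207 in number, had a median change of 0.09.

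On GL897412:138509-149092, 3 of 5 regions were opened. The stretch levels were 6.50, 6.61 and 6.58 in CF and 5.02, 5.20, 4.83 and 4.97 in WT, a rise of 1.56 ± 0.27 (SE; adjusted p = 0.00163, limma). The other 25 regions of the scaffold had a median change of 0.39, and with each scaffold centred the rise was 1.12 (adjusted p = 0.0466, limma). Opened and uncalled regions alternated along the stretch. Regions 1, 3 and 5, counted from the start, rose by 2.31, 1.98 and 2.09, while regions 2 and 4 had changes of 0.69 and 0.72 that did not pass the test. No region of this stretch departed from the others in the test of departure given below, so the alternation itself was not shown.

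GL896944:1173332-1183767 rose in its middle, with changes near 0 at its ends. Its levels were 6.26, 6.71 and 6.53 in CF and 4.70, 5.36, 4.99 and 4.94 in WT, a rise of 1.50 ± 0.29 (SE; adjusted p = 0.00337, limma). Region 4 of 5, GL896944:1181030-1181766, rose by 3.88 ± 0.51, with signal of 97.2, 156 and 121 in CF and 7.34, 17.8, 3.08 and 6.70 in WT. The outer regions had changes of -0.09 and 0.06 with peaks in all 7 lists, whereas region 4 had peaks in the 3 CF lists and in no WT list. Regions 1 and 4 departed from the rest of the stretch by -1.99 and 2.97 (adjusted p = 0.036 and 0.030, limma).

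GL897177:488531-495183 held 5 regions that all had positive changes, from 1.14 to 3.17, of which regions 1 and 2 were opened. The stretch levels were 6.21, 5.98 and 6.04 in CF and 3.96, 4.07, 3.83 and 4.99 in WT. WT4 stood closest to the CF libraries, and the rise was 1.86 ± 0.37 (SE; adjusted p = 0.00454, limma). GL896907:12069732-12083010 had levels of 6.29, 6.40 and 6.56 in CF and 5.29, 5.21, 5.03 and 5.37 in WT, a rise of 1.19 ± 0.26 (SE; adjusted p = 0.00872, limma). Of its 6 regions 3 were opened and the last had a change of -0.02. This call was lost without CF2 or CF3, where the adjusted p reached 0.0777.

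**Figure D1:**
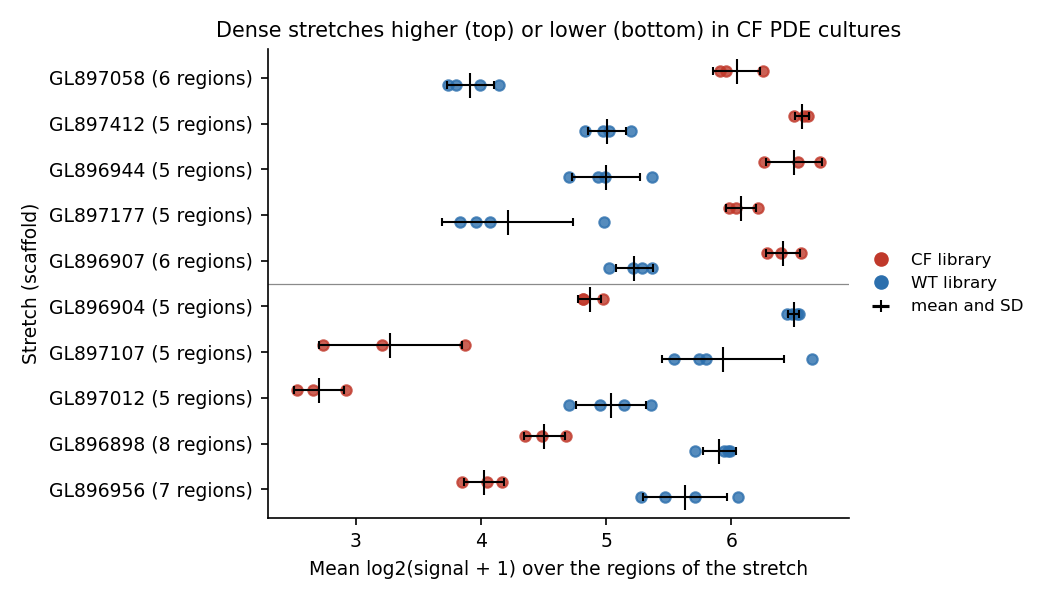
Mean log2(signal + 1) over the regions of the 5 stretches higher in CF (top) and the 5 lower in CF (bottom) with the smallest adjusted p, named by scaffold. Points are libraries (3 CF, 4 WT), black marks the mean and SD. In each of the 10 stretches all CF libraries lie on one side of all WT libraries, as the rule for naming them required. GL897107 spreads most within the CF libraries (2.74 to 3.88).

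Among the lower stretches, the smallest adjusted p was at GL896904:9345513-9353771. Its levels were 4.97, 4.82 and 4.81 in CF and 6.52, 6.54, 6.45 and 6.48 in WT, a change of -1.63 ± 0.25 (SE; adjusted p = 0.000797, limma). The libraries of each genotype lay close together, with SDs of 0.09 in CF and 0.04 in WT. Only its first 2 regions were closed. Region 2, GL896904:9346334-9346885, fell by 4.61 on the log2 scale, from signal of 182, 166, 286 and 161 in WT to 10.2, 5.22 and 6.18 in CF, and it had a peak in all 4 WT lists and in no CF list. The last 3 regions had changes of -0.36 to -0.70 that did not pass the test, and the other 1270 regions of this scaffold had a median change of -0.43.

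The change spread over nearly the whole stretch at GL897107:194466-210961, where 4 of 5 regions were closed with changes of -2.72 to -3.86. The stretch levels were 3.88, 3.21 and 2.74 in CF and 5.80, 5.75, 6.64 and 5.54 in WT, a change of -2.66 ± 0.42 (SE; adjusted p = 0.00091, limma). Region 4, at GL897107:206993-207682, had signal of 54.9, 61.9 and 79.2 in CF and 103, 62.2, 120 and 124 in WT, with peaks in all 7 lists. Its change of -0.61 did not pass, and it departed from the rest of the stretch by 2.57 (adjusted p = 0.046, limma). At GL897012:990554-1006280, 4 of 5 regions were closed and the stretch changed by -2.33 ± 0.47 (SE; adjusted p = 0.00507, limma), from levels of 4.70, 5.14, 5.36 and 4.95 in WT to 2.53, 2.92 and 2.66 in CF. The other 293 regions of that scaffold had a median change of -0.58, the lowest among the 10 named stretches.

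GL896898:45543692-45563491 held the most closed regions of any stretch, 6 of 8. Its levels were 4.68, 4.35 and 4.49 in CF and 5.99, 5.98, 5.94 and 5.71 in WT, a change of -1.40 ± 0.30 (SE; adjusted p = 0.00736, limma). The first and strongest region had a change of 0.15 and a peak in all 7 lists, and it departed from the others by 1.77 (adjusted p = 0.023, limma). GL896956:5528882-5542528 had 4 of 7 regions closed, with changes from -0.44 to -2.65 along it. Its levels were 3.85, 4.05 and 4.17 in CF and 5.47, 5.71, 6.06 and 5.28 in WT, a change of -1.60 ± 0.36 (SE; adjusted p = 0.00881, limma).

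**Figure D2:**
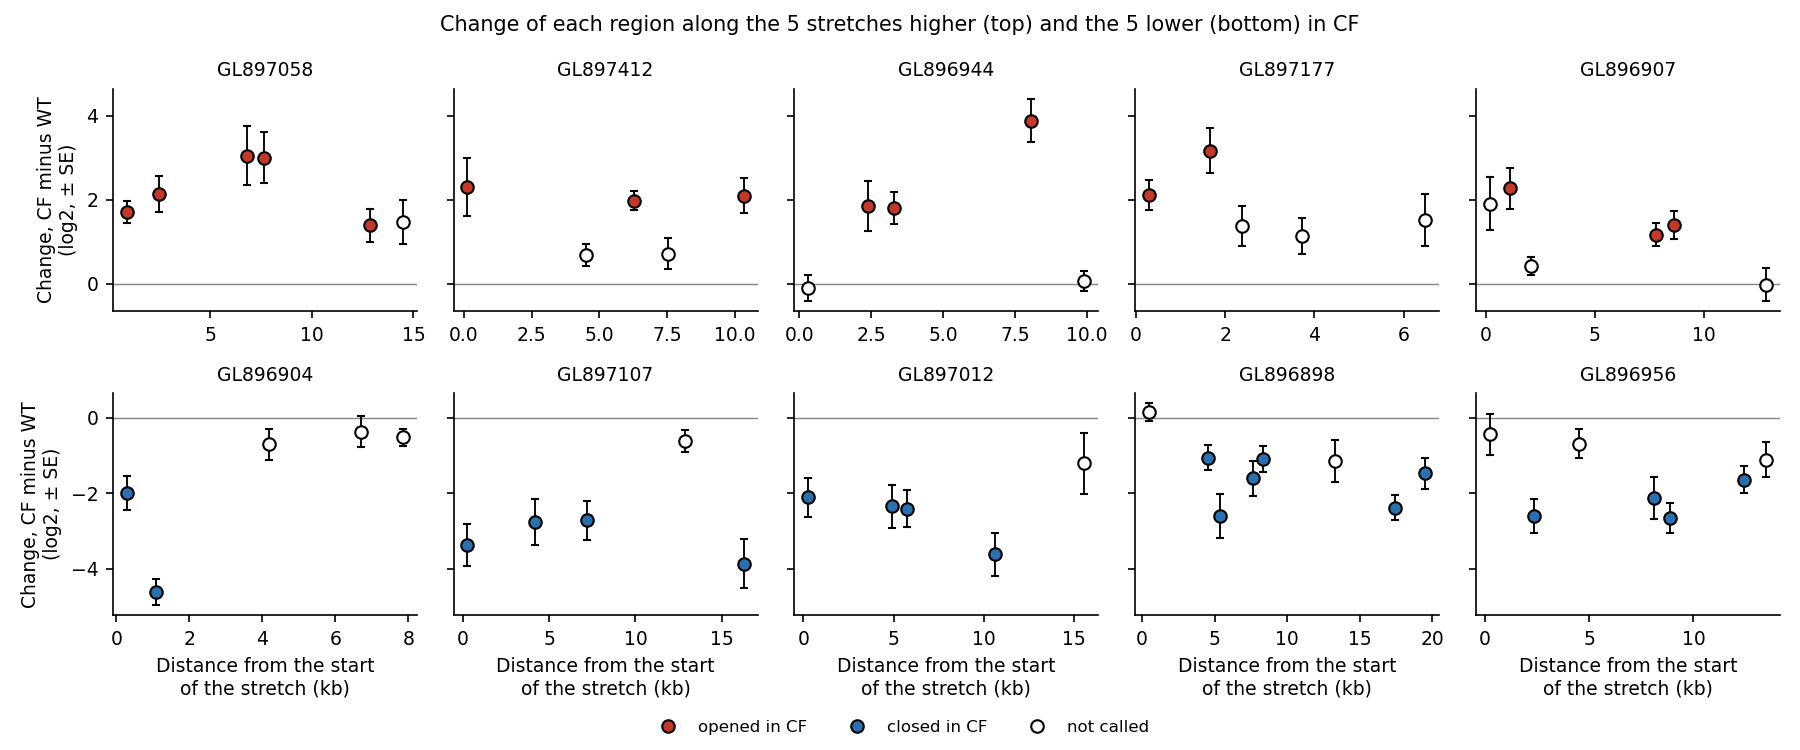
Change of each region (CF minus WT, log2, with its SE) against the distance of its middle from the start of the stretch in kb, for the same 10 stretches. All or nearly all regions of a stretch lie on one side of 0, while sizes differ within a stretch, from -0.09 to 3.88 on GL896944 and from -0.36 to -4.61 on GL896904. The stretches were chosen by the mean of these same regions, which favours a shared sign.

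One of the 26 lower stretches is set apart by its depth. GL897838:3190-12390, whose 5 regions are all the regions of that scaffold, held 8.97%, 7.15% and 8.11% of the reads of CF1 to CF3 and 13.0%, 14.0%, 22.5% and 22.6% of those of WT1 to WT4. Its mean log2 level was 16.35 ± 0.19 in CF and 17.81 ± 0.62 in WT (SD, n = 3 and 4). The change was -1.46 ± 0.46 (SE; adjusted p = 0.0499, limma), with 1 region called, and 25 lower stretches were left without it.

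Called regions of dense stretches lay, by count, more often beside calls of their own direction than beside the opposite. This was not particular to them, as it also held in chains of 2 to 4 and in pairs more than 5000 bp apart. No region was called in 398 stretches and exactly 1 in 190. Of the 86 stretches with 2 or more calls, 30 held opened regions only, 36 closed regions only and 20 both, so that 76.7% had calls of one direction. In 10 stretches 3 or more regions were opened and in 14 stretches 3 or more were closed. No stretch had all of its regions called. Among the 3245 pairs of adjacent regions in the stretches, 26 pairs were both opened, 35 both closed and 7 of opposite call, and in 525 a called region lay beside an uncalled one. In chains of 2 to 4 regions the same counts were 205, 297 and 37 of 22362 pairs. Of the 67627 neighbouring pairs more than 5000 bp apart, 307 were both opened, 536 both closed and 194 opposite. The regions that were not called leaned the same way. In the 30 stretches with opened calls only, 68 of 109 uncalled regions had a positive change, with a median of 0.31, and in the 36 with closed calls only, 37 of 126 had one, with a median of -0.34.

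**Figure D3:**
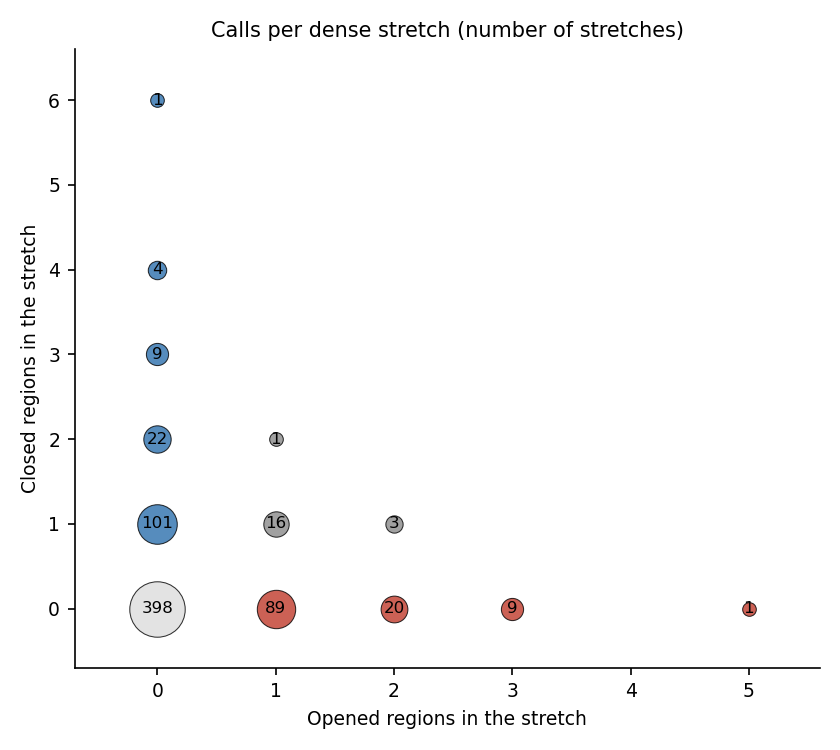
Number of dense stretches by how many of their regions were opened (horizontal axis) and closed (vertical axis) in CF, where circle area grows with the square root of the number printed inside. Most stretches (398) have no call, 86 have 2 or more, and the 20 with both directions (grey) hold at most 3 calls.

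A single sign over a whole stretch was seen in a minority. All regions had the same sign of change in 109 of 674 stretches (16.2%), 55 upward and 54 downward. As more regions must agree in a longer chain, this share was 59.4% for chains of 2 regions, 38.0% for chains of 3, 24.3% for chains of 4 and 19.1% for chains of 5. Adjacent regions had the same sign in 59.8% of pairs within stretches, 59.4% of pairs within chains of 2 to 4 and 55.4% of pairs more than 5000 bp apart.

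How alike the changes were within a stretch was described by the intraclass correlation, the share of the variance of the change that lies between stretches, which is 0 when regions of a stretch are no more alike than others. It was 0.22 over the 674 stretches. It was 0.20 for stretches of 5 regions, 0.21 for those of 6 and 0.26 for those of 7 or more, and 0.29 for chains of 2 to 4, so it was not higher in dense stretches than in short chains. With the median of each scaffold taken away it was 0.17, and with each library left out in turn it ran from 0.21 to 0.23. The same measure was also taken for what differs between libraries of 1 genotype. For the deviation of a library from its genotype mean it was 0.22 in CF1, 0.18 in CF2, 0.03 in CF3, 0.14 in WT1, 0.28 in WT2, 0.15 in WT3 and 0.11 in WT4. Neighbours were therefore alike in their deviations within a genotype as well, and in WT2 more than in the CF minus WT change. These values carry no p because regions of a library share its depth and scaling.

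Likeness fell with distance. Within dense stretches, Pearson's r between the changes of adjacent regions was 0.57 for 550 pairs up to 500 bp apart, 0.27 for 421 pairs at 500 to 1000 bp, 0.20 for 655 pairs at 1000 to 2000 bp, 0.20 for 551 pairs at 2000 to 3000 bp and 0.21 for 1068 pairs at 3000 to 5000 bp. Most of the fall took place within the first kilobase. Over all neighbouring regions of the matrix r was 0.49 up to 500 bp, 0.36 at 500 to 1000 bp, 0.22 at 3000 to 5000 bp, 0.20 at 5000 to 10000 bp and 0.07 beyond 100000 bp. These are correlations across genomic neighbours, which are not independent replicates and share library, depth and base composition.

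**Figure D4:**
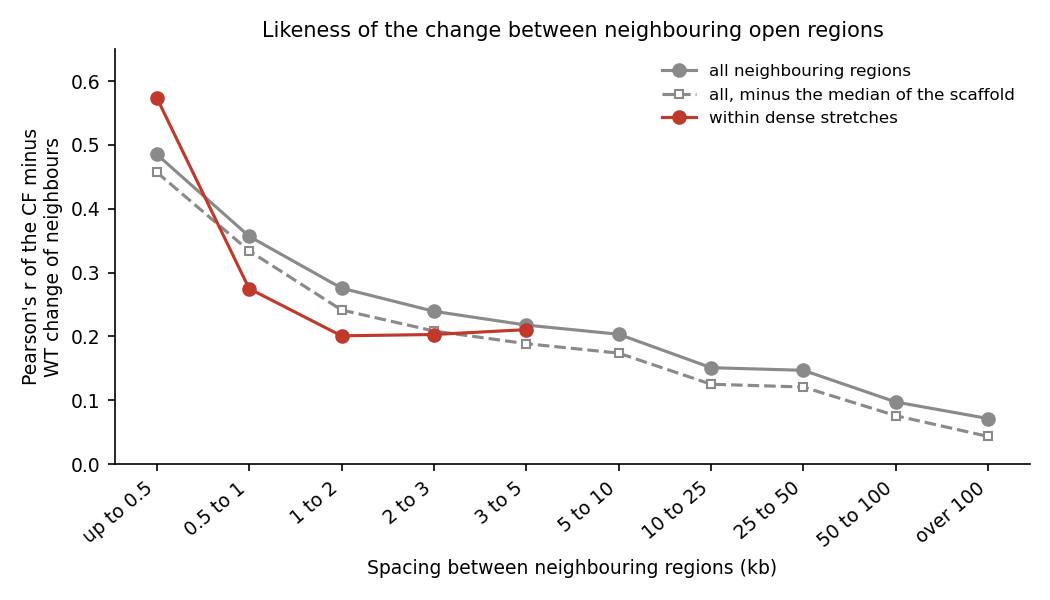
Pearson's r between the CF minus WT changes of adjacent open regions (vertical axis) by the spacing between them in kb (horizontal axis), for pairs within dense stretches (red), all pairs (grey) and all pairs after taking away the median change of their scaffold (open squares). The red line starts at 0.57 for pairs up to 500 bp apart and lies at 0.20 to 0.21 from 1000 bp on.

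Individual regions departed from their stretch in both directions. For every region in a chain of 2 or more, its log2(signal + 1) minus the mean of the other regions of the chain was fitted with limma over all 43274 such regions, and called at an adjusted p under 0.05 and a difference past 1. Of the 3919 dense regions, 56 rose relative to their stretch (1.43%) and 75 fell relative to it (1.91%), beside 2.16% and 2.45% of all regions tested. In a chain of 2 the difference of a region is the negative of its partner's. The share over all regions can therefore count such a pair in both directions and is not a like measure. The departing dense regions lay in 112 stretches, 18 of which held at least 2. Of the 56, 42 were themselves opened, and of the 75, 60 were themselves closed. Of the 399 called regions of dense stretches 102 (25.6%) departed from their neighbours, and for the other 297 no different change was shown. The smallest adjusted p was 0.0113 (limma). No region was called without CF1, without CF2 or without CF3, where the smallest adjusted p was 0.0514, 0.0652 and 0.0633 and 457, 452 and 466 members had an unadjusted p under 0.05, against 679 with all libraries. Meanwhile 34 above and 33 below were called without WT4 and 15 and 19 without WT2. Each of these calls therefore needs all 3 CF libraries.

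The 3 regions with the clearest rise against their stretch were near the lower limit of detection in WT. GL896922:3591675-3591971 had signal of 27.4, 28.3 and 25.8 in CF and 1.47, 1.78, 3.08 and 3.35 in WT, with peaks in the 3 CF lists and in no WT list. It departed from its stretch by 3.34 ± 0.35 (SE; adjusted p = 0.0115, limma), and the other 5 regions, none of them called, had changes from -0.82 to 0.26. At GL897047:3797744-3798213 the signal was 72.9, 104 and 79.8 in CF and 1.47, 7.11, 3.08 and 1.68 in WT, a departure of 4.33 ± 0.56 (SE; adjusted p = 0.0133, limma). GL897129:307920-308244 had 15.7, 12.7 and 19.1 in CF, and all 4 WT libraries were at the value of 1 read, the lowest in the matrix. Its departure was 3.04 ± 0.41 (SE; adjusted p = 0.0153, limma). With so few WT reads the size of all 3 departures depends on the pseudocount and is not a measured fold. A pseudocount of 5 in place of 1 gave 2.38, 3.28 and 1.95 in the same order.

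The clearest falls were of regions well covered in WT and low in CF, so their size also depends in part on the pseudocount. GL897030:3760786-3761314 had signal of 5.49, 8.21 and 10.7 in CF and 125, 115, 92.3 and 70.4 in WT, a departure of -3.97 ± 0.35 (SE; adjusted p = 0.0113, limma). The other regions of its stretch had changes from -0.77 to 1.85 with none called. GL896901:9608338-9608986 had 9.41, 7.46 and 8.99 in CF and 66.0, 129, 120 and 213 in WT, a departure of -3.52 ± 0.41 (SE; adjusted p = 0.0117, limma). Its 4 neighbours had changes of -0.66 to 0.58. The other was the second region of the GL896904 stretch described above, with a departure of -3.72 ± 0.44 (SE; adjusted p = 0.0117, limma). All 3 had a peak in the 4 WT lists and in no CF list.

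In 20 stretches both opened and closed regions were called, not always next to each other, and 16 of these held 1 of each. A further 4 held 3 calls, of which 3 had 2 opened and 1 closed region and are described here. The other, GL897168:1012965-1022002, had 1 opened and 2 closed. At GL896922:2355968-2373085 regions 1 and 2 of 6 rose by 1.82 and 1.71 and region 5 had a change of -2.10. Region 1 had signal of 62.7, 33.6 and 75.3 in CF and 8.80, 11.5, 36.9 and 11.7 in WT, with CF2 just below WT3, whereas region 5 had 22.0, 20.1 and 15.7 in CF and 82.2, 94.2, 92.3 and 73.7 in WT with no overlap. The mean of the stretch hardly differed, 5.94 ± 0.08 in CF and 6.01 ± 0.13 in WT (SD, n = 3 and 4; adjusted p = 0.904, limma). At GL896944:9073065-9095641 region 1 of 7 had a change of -2.11 while regions 3 and 7 rose by 1.53 and 1.62, and at GL896951:9290404-9309747 regions 1 and 4 of 7 rose by 1.98 and 2.45 and region 7 had a change of -1.68. Neither stretch was called as a whole (adjusted p = 0.805 and 0.359, limma), although in the latter each CF library (4.99 to 5.07) was above each WT library (4.31 to 4.63). The GL896944 stretch is a different one from that on the same scaffold named above.

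None of the 15 stretches with 10 or more regions was called, with changes from -0.54 to 1.01 and a smallest adjusted p of 0.0812 (limma). One of them had an unadjusted p under 0.05. The alternatives counted for these 15 were limma with only dense stretches in the fit, limma on the summed signal and edgeR on summed reads. Each called 1 of the 15, with a smallest adjusted p of 0.0439, 0.0151 and 0.00493 in that order. Of their 175 regions 2 were opened and 4 closed. The longest, GL897124:148930-192265, held 18 regions over 43336 bp. Its levels were 6.72, 6.25 and 6.48 in CF and 7.20, 6.18, 7.33 and 6.45 in WT, overlapping between genotypes. None of its regions was called, and their changes ran from -0.87 to 0.26. On GL897387:120656-147464, 1 of 14 regions was closed with a change of -1.11. GL897099:3458883-3484544, with 13 regions, lost a single one. Region 5, GL897099:3464136-3464553, had a change of -3.86 ± 0.34, with signal of 7.84, 11.2 and 10.1 in CF and 110, 179, 132 and 209 in WT, while the other 12 had changes from -0.52 to 0.39. It departed from them by -3.83 (adjusted p = 0.0155, limma). Regions on both sides of it, at GL897099:3461403-3462844 and GL897099:3467979-3468554, had changes of 0.10 and 0.01.

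The dense regions as a whole were not shown to move against the single regions. The median log2(signal + 1) of their regions minus that of single regions was 1.09, 1.25 and 1.11 in CF1 to CF3 and 1.10, 1.05, 1.32 and 1.02 in WT1 to WT4. The genotypes overlapped and differed by 0.03 (exact permutation test over libraries, two-sided, p = 0.714; with 3 against 4 libraries the smallest possible p is 0.0286). Reads in dense stretches made up 16.6%, 14.1% and 14.9% of reads in all regions in CF and 19.9%, 19.4%, 28.9% and 27.9% in WT, which did not overlap (15.2% ± 1.29 against 24.0% ± 5.06, SD, n = 3 and 4; exact permutation p = 0.0857). This gap rested on a single scaffold. Without GL897838 the shares were 8.40%, 7.46% and 7.43% in CF and 8.02%, 6.34%, 8.25% and 6.82% in WT, and the difference turned to 0.40 percentage points higher in CF (exact permutation p = 0.514).

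**Figure D5:**
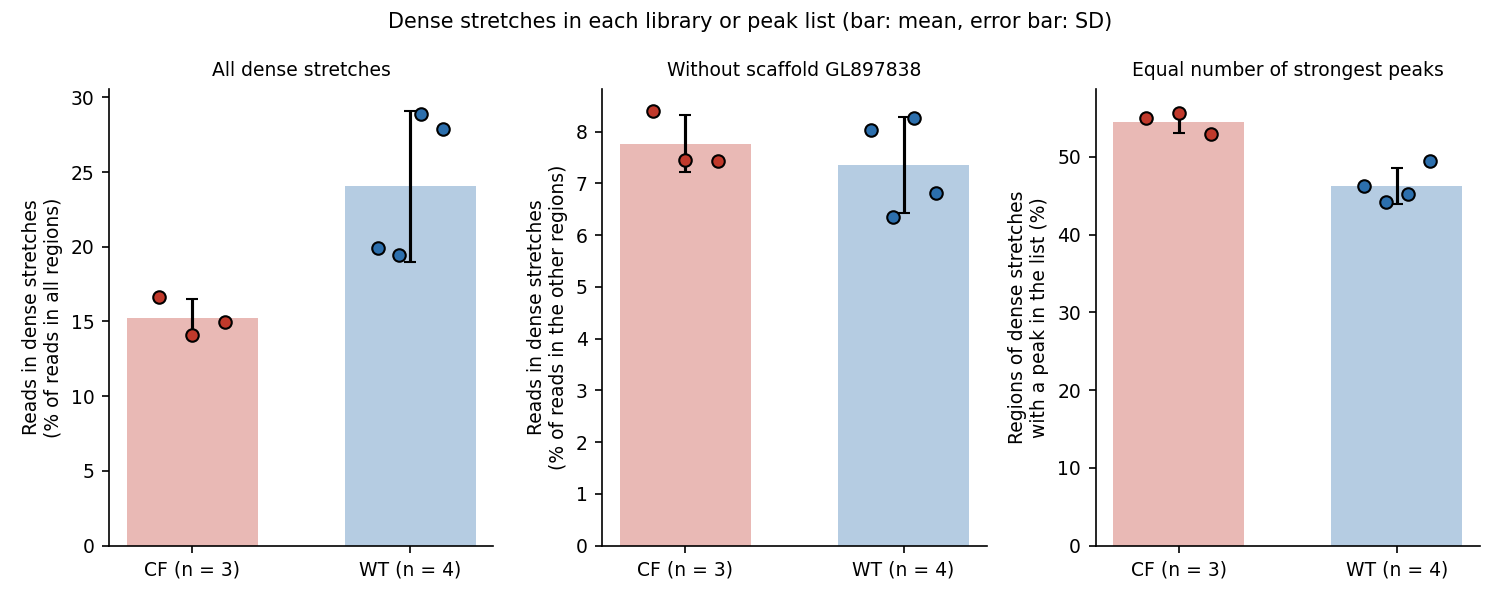
Left and middle, reads in dense stretches as a percentage of reads in all regions, with every scaffold and without GL897838; right, percentage of the 3919 regions of dense stretches with a peak when each peak list is limited to the same number of strongest peaks. Points are libraries or peak lists, bars the mean and error bars the SD; the genotypes are apart on the left (15.2% against 24.0%), overlap in the middle (7.76% against 7.36%) and are apart on the right (54.5% against 46.3%).

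Peak lists gave a count of where each library had a peak. The regions were built from these same peaks, and the longer a list the more regions it can add, so the shares below are a description and carry no test. Lists and matrix columns of 1 genotype were numbered in reverse of each other. Over the dense regions, the signal of columns CF1, CF2 and CF3 was most like lists CF3, CF2 and CF1, and that of columns WT1 to WT4 most like lists WT4 to WT1, with r of 0.53 to 0.61 for these 7 pairs and at most 0.34 for any other, both measures being taken relative to the mean of the region over libraries. Genotypes were the same in all 7 pairs. Of the comparisons of CF with WT, only the fit with the replicate number as a block, given below, depends on the number. Libraries are named here by matrix column and lists by list. A peak lay at 82.3%, 79.4% and 70.3% of the dense regions in the CF lists and at 59.7%, 44.2%, 71.4% and 59.3% in the WT lists, which overlapped (77.4% ± 6.27 against 58.6% ± 11.1, SD, n = 3 and 4). The lists held from 48417 to 104397 peaks, and CF lists were mostly longer. With each list limited to its 48417 strongest peaks the shares were 55.0%, 55.7% and 52.9% in CF and 46.3%, 44.2%, 45.2% and 49.5% in WT. They no longer overlapped, and the means differed by 8.23 percentage points. The dense share minus that of single regions, over complete lists, was 6.99, 6.14 and 7.23 points in CF and -4.10, 5.23, -2.93 and 4.12 points in WT, a difference of 6.20 points, and at equal list length it was 6.87 points. Peaks in dense regions had a lower fold enrichment over the peak caller's background than those at single regions in both genotypes. This ratio is not the signal of the matrix, whose median was higher in dense regions. The median fold enrichment in dense regions was 4.31 ± 0.04 in CF and 5.01 ± 0.22 in WT (SD, n = 3 and 4). At single regions it was 6.05 ± 0.09 and 6.75 ± 0.25.

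Peaks found in 1 genotype alone were scattered over the stretches. At 216 dense regions (5.51%) a peak was called in all 3 CF lists and in no WT list. The share was 4.48% over all regions, 4.81% in chains of 2 to 4 and 4.16% of single regions. At 34 dense regions (0.868%) a peak was called in all 4 WT lists and in no CF list, beside 1.04%, 0.966% and 1.11% in the same order. The dense shares were thus near those over all regions. The former asks for 3 lists and the latter for 4, so their numbers are not comparable with each other. The 216 lay in 186 stretches, 29 of which held at least 2 and none more than 3. The 34 lay in 33 stretches, and 8 stretches held regions of both kinds.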

How the data were processed

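The labels give 3 CF and 4 WT libraries. Reads were trimmed with Trimmomatic, aligned to MusPutFur1.0 with Bowtie 2 and used for peak calling with MACS2, and the authors built regions and a normalised matrix with DiffBind. The deposited matrix holds a signal per region and library: reads times 1 factor per library, with 100.0% of values whole reads within 0.001 and none below 1 read. The deposited peak lists, 1 per library, hold a score, a fold enrichment ratio over the caller's background, and −log10 p-values and q-values. Peak names carry the word dedup, and how duplicates were treated is not given in the sources used here. Starts in the matrix lie 1 base before peak starts, and positions are printed counted from 1.

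Tests used limma 3.58.1 in R 4.3.3 with a mean trend on log2(signal + 1), over all regions or chains of the table, and scipy 1.17.1 for exact permutation over libraries. A fold change on this scale understates the change of low regions. Fits were tested on simulated data. Alternatives were edgeR 4.0.16 and DESeq2 1.42.0 on recovered reads, other scalings, spacings, filters and each library left out. The members, the tests and the rule for naming stretches were chosen with earlier results of these data known. Named were the 5 stretches in each direction with the smallest adjusted p among those whose libraries did not overlap, the 3 with most regions, the 3 with both directions and most calls, and the 3 departing regions in each direction with the smallest adjusted p; no stretch had all regions called. Other regions of named stretches, and the GL897838 stretch, were described after their values were seen.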

Additional observations from a re-analysis of the deposited data

Results flagged for a closer look

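Among the 4 WT libraries, 1 of 30 tested values had a library far from the others. In the GL896898 stretch the mean log2 level was 5.71 in WT4 and 5.94 to 5.99 in the other WT libraries, a gap of 0.84 of the whole WT range. Chance alone flags about 1 such group in 20, and all 4 WT libraries were above the highest CF library (4.68).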

How the results depend on the processing

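Of the 10 stretches named as higher or lower in CF, only GL896907 lost its call under any alternative run, in 2 of them, and none changed direction. Counts moved more. Opened members numbered 350 with library-size scaling, 99 with a mean signal of at least 30, 91 past a log2 change of 2 and 66 to 231 with a library left out, and closed members 116, 169, 91 and 133 to 222. Higher and lower stretches numbered 43 and 7 with library-size scaling, 30 and 13 with upper-quartile scaling, 23 and 12 with each scaffold centred, 25 and 47 with the filter on mean signal, 40 and 62 on summed signal, 52 and 47 with only dense stretches in the fit, and 50 and 59 with edgeR on reads. Past a log2 change of 1 they numbered 12 and 14, and with a library left out 4 to 23 and 8 to 32. A spacing of 2500 bp gave 109 stretches with 3 higher and 1 lower, one of 10000 bp gave 3055 with 91 and 93, and of the 15 with at least 10 regions 0 were called by limma over all chains, with 1 at an unadjusted p under 0.05, and 1 each by limma with only dense stretches, by limma on summed signal and by edgeR. edgeR called 212 opened and 233 closed members and DESeq2 219 and 268. Regions above their stretch numbered 86 with a pseudocount of 5 and 0 to 74 with a library left out, and those below 0 to 77. The intraclass correlation was 0.28 above a mean log2 signal of 5, 0.17 with scaffold medians removed, 0.24 and 0.18 at spacings of 2500 and 10000 bp, 0.23 with a pseudocount of 5, and 0.21 to 0.23 with a library left out. The CF minus WT share of reads turned to 0.40 points without GL897838, and the peak share differed by 8.23 points at equal list length.

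Differences near 0 changed sign. The signal relative to single regions differed by -0.0238 without CF2, -0.00816 without WT4 and up to 0.0929 without WT3. GL897124 changed by 0.0468 with library-size scaling and 0.19 with scaffolds centred, and GL897099 by 0.0366 and 0.49. The GL896922 stretch with both directions changed by 0.28 with library-size scaling, 0.11 with upper-quartile scaling, 0.0858 with scaffolds centred and 0.0694 without its strongest region. With the filter, the GL896944 and GL896951 stretches with both directions changed by -0.10 and -0.18. The cause was not tested. Libraries share only a number across genotypes, and the numbers of matrix columns run in reverse of the peak lists. Same-numbered columns correlated at 0.08, 0.07 and -0.02 in their deviations from the genotype means, and columns matched by list number at -0.0925, -0.0224 and 0.000981. With the replicate number as a block, 220 members were opened and 234 closed, 18 stretches were higher and 22 lower, and 0 regions above and 0 below their stretch were called by limma, with 544 members at an unadjusted p under 0.05. Only WT has a library numbered 4, so in this fit WT4 adds nothing to the CF minus WT change. The changes equal those without WT4, and the pairing of the other libraries is by number alone. Leaving out the GL897838 stretch, an alternative chosen after seeing the data, left 17 higher and 25 lower stretches. WT3 had the fewest reads in regions, 3226534.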

Other observations

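In the lowest quintile of mean signal over all regions, 176 regions belonged to dense stretches, and 19.9% of them were opened and 2.84% closed in CF. In that quintile 9.17% and 2.73% of the 5270 regions in chains of 2 to 4 were opened and closed, and 5.27% and 2.56% of the 13580 single regions. A higher opened share than in single regions was thus also seen in short chains. In the highest quintile, 1.56% of 1342 dense regions were opened and 3.73% closed. The shares there were 2.11% and 5.90% in chains of 2 to 4 and 1.36% and 5.61% in single regions. These shares are a description over regions that share libraries and neighbours, and the signal that defines the quintiles is also the signal that was tested.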
